A study of Homo sapiens with 4 samples.

Results

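The heat shock proteins and chaperonins described here are 46 genes, chosen by name from the families of heat shock factors, HSP90, HSP70, HSP110, J proteins, small heat shock proteins, their co-chaperones, the mitochondrial chaperones, the cytosolic chaperonin and prefoldin. They are 46 of the 63677 rows of the expression table, and all 46 passed the filter on low counts that left 16064 genes to test. For 3 of them (HSF1, HSPA1A and HSPA1B) the symbol occurs in several rows, and the row with the highest mean was kept. The 9 rows left out held no reads in any library. Although the set was listed as cytosolic, TRAP1, HSPA9, HSPD1, HSPE1 and DNAJA3 encode mitochondrial proteins, HSPA13 is associated with the endoplasmic reticulum and HSPB11 is a subunit of the intraflagellar transport machinery of cilia.

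RNA was sequenced from MDA-MB-231, an established human triple-negative breast cancer cell line with mesenchymal features. Cells received a control siRNA (siCt, libraries siCt 1 and siCt 2) or a pool of siRNAs against AXL (siAxl, libraries siAxl 1 and siAxl 2). The comparison asks which transcripts differ when AXL, a receptor tyrosine kinase, is depleted. The dose and the time of harvest are not given in the sources used here. Because the AXL siRNAs were applied only as a pool, an effect of lower AXL and an effect of the siRNAs on other transcripts cannot be told apart. The labels do not say that libraries of a group came from separate cultures, so the p-values measure only the spread between these libraries.

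Chaperones bind unfolded or partly folded proteins and let them fold, refold or move between complexes. HSP70 proteins bind short hydrophobic stretches in a cycle driven by ATP, in which J proteins deliver the client and start hydrolysis and nucleotide exchange factors such as HSP110 and BAG proteins end the cycle. HSP90 acts later, on kinases and steroid receptors among others, while the chaperonins are barrel-shaped complexes that enclose a client, actin and tubulin in the case of the cytosolic one. Heat shock factors, HSF1 above all, bind heat shock elements in promoters and raise the transcription of many of these genes when proteins misfold.

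The promoters were searched for an uninterrupted heat shock element, because it is a form of the site through which heat shock factors act. The members were chosen by name and not by this element. Since heat shock factors raise many genes of these families, a higher share among the members was foreseeable from the choice. The element was defined as 3 alternating triplets GAA and TTC with any 2 bases between neighbours, on either strand, within 250 bases before to 50 bases after the RefSeq start of the gene (GRCh38.p14). A window was found for 39 members, and 6 of them (15.4%) held the element, beside 78 of 14160 protein-coding genes (0.551%), the members included. One element of each of these 6 genes is shown in 30 bases on the strand of the gene, with the triplets in capitals, so that their place and spelling can be set beside the expression values that follow.
HSP90AA1: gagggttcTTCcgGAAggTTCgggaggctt
HSP90AB1: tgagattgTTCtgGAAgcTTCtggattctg
HSPA8: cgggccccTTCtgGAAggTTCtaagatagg
DNAJA1: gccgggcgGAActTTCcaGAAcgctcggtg
DNAJB6: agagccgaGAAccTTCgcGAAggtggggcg
HSPD1: attttctgGAAagTTCtgGAAccgagcgag
The sequences lie at chr14:102087111-102087140 (minus strand) for HSP90AA1, chr6:44247823-44247852 (plus strand) for HSP90AB1 and chr11:123062170-123062199 (minus strand) for HSPA8. Those of the other genes lie at chr9:33025268-33025297 (plus strand) for DNAJA1, chr7:157336865-157336894 (plus strand) for DNAJB6 and chr2:197500059-197500088 (minus strand) for HSPD1. Counted from the start base of the gene, the elements shown begin at -88 in HSP90AA1, -112 in HSP90AB1, -55 in HSPA8, 3 in DNAJA1, -131 in DNAJB6 and -240 in HSPD1. Another copy lay at -165 in HSP90AB1 and at -230 in HSPA8, and in HSPD1 a copy at -245 overlapped the one shown. A match is a run of letters in a window and does not show that a factor was bound there. Elements with an imperfect triplet, with a gap or outside the window were not searched for. A window without a match thus does not show that the gene lacks a heat shock element.

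The libraries held 39574387 to 44585773 reads on genes. AXL stood at 29189 and 30617 normalized counts in siCt 1 and siCt 2 and at 8658 and 7141 in siAxl 1 and siAxl 2, which is 26.4% of the siCt mean. Of the markers of the line, VIM was abundant (86751 to 99296 per library) and the hormone receptors ESR1 and PGR were at or near 0 (at most 3.25). CDH1 was low and was called lower in siAxl (90.1 and 94.3 in siCt, 36.9 and 22.6 in siAxl, adjusted p = 0.00847). ERBB2 was detected in every library and was called higher (3089 and 2949 in siCt, 3680.0 and 3536 in siAxl, adjusted p = 0.0258), and EPCAM was at 565 to 771 and was not called. Whether these shifts go with those of the chaperones was not tested. Over all genes tested, 1735 (10.8%) reached an adjusted p under 0.05 in limma as higher in siAxl, and 1271 (7.91%) as lower; such genes are termed called. When libraries were scaled by their size alone, 1536 were called higher and 1745 lower.

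Transcripts of the 46 members were mostly lower after AXL depletion, by modest amounts. The members were listed with earlier results of these data known. Of the 46 members, 21 were called lower (45.7%, against 7.91% of all genes tested), 3 were called higher (6.52%, against 10.8%) and 22 were not called. The log2 fold change, siAxl over siCt, was below 0 for 38 members, and its median was -0.22, while the median over all genes tested was -0.0022. The 64 other chaperone genes tested, described below, had a median of -0.061, with 12.5% called lower and 4.69% called higher. In the 4 contrasts of 1 siAxl library with 1 siCt library the members' median lay between -0.29 and -0.14. The members called lower stood at 69.2 to 86.2% of the siCt mean, with adjusted p from 0.00836 to 0.0475, so each difference was small and the calls lay near the threshold in many cases. All values of both groups were separate for 42 members, 35 of them lower in siAxl (76.1%, against 30.5% of all genes tested) and 7 higher (15.2%, against 30.6%). Separate groups were thus common over all genes, and for a single member below they do not show a difference where its test was not passed. Library values are given below in the order of replicate 1 and replicate 2. By role, 7 of 8 chaperonin subunits and 4 of 5 mitochondrial chaperones were called lower, against 0 of 4 BAG proteins and STUB1. Of the 6 genes whose promoters hold the element printed above, 2 were called lower (DNAJA1 and HSPD1), 1 was called higher (DNAJB6) and 3 were not called, with log2 fold changes from -0.30 to 0.49. In bulk RNA, fewer cells with a transcript and less of it per cell cannot be told apart.

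**Figure D1:**
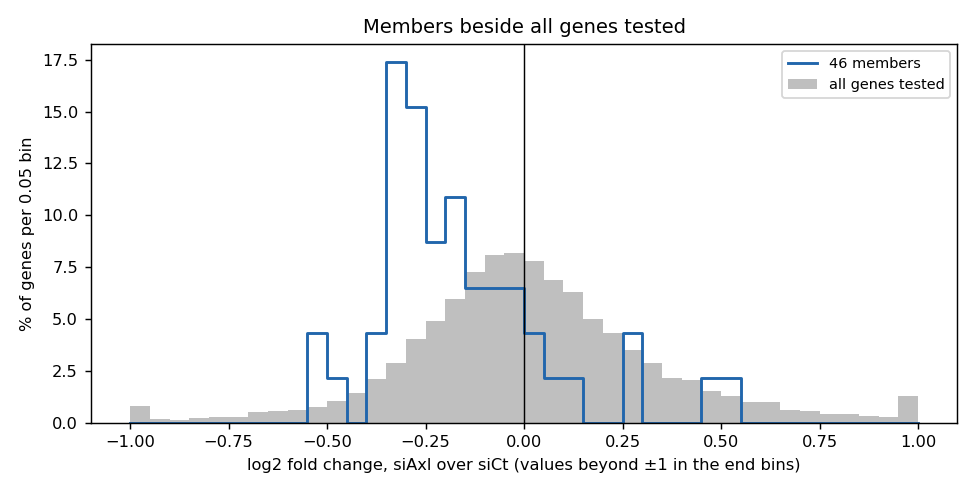
Distribution of log2 fold changes, siAxl over siCt, in bins 0.05 wide. Grey bars give the percent of the 16064 genes tested and the blue line the percent of the 46 members, whose median is -0.22 while that of all genes is -0.0022.

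The number of calls depended on single libraries and on the filter. The calls of lower members numbered 24 without siCt 1, 13 without siCt 2, 4 without siAxl 1 and 13 without siAxl 2. When the filter on low counts was replaced by at least 1 count in any library, 5 members were called lower and 2 higher. Over all 27108 genes then tested, 340 were called lower and 757 higher. Lower calls over all genes also rose without siCt 1 and fell without each of the other libraries, so these changes were not particular to the members. The groups did not overlap for any of the 24 called members, so leaving out 1 library could not turn the sign of these. Of the 24 calls, 5 held under each of the 12 alternative settings, namely HSF2, CCT4 and TCP1, which were lower, and DNAJB2 and DNAJB6, which were higher.

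**Figure D2:**
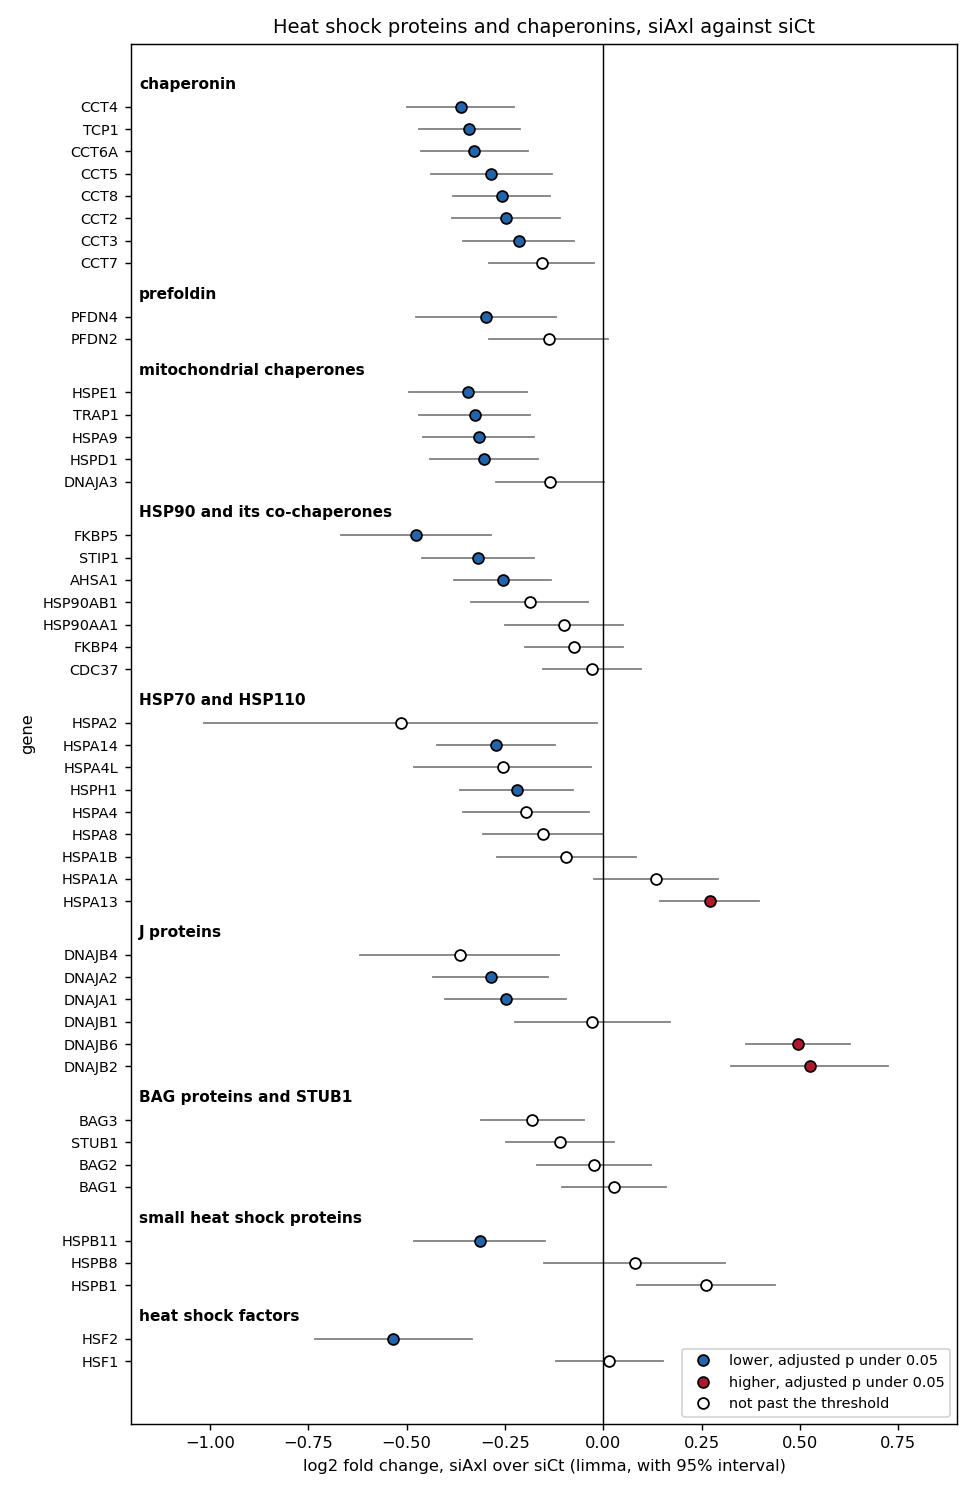
Log2 fold change of each member, siAxl over siCt, with its 95% interval from limma, grouped by role. Filled blue points are the 21 members called lower, filled red points the 3 called higher and open points the 22 not called; all chaperonin, prefoldin, mitochondrial and HSP90 members lie left of 0.

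The cytosolic chaperonin, also called TRiC or CCT, is a double ring built from 8 different subunits, and all 8 of its genes listed here had lower means in siAxl, with 7 called lower. CCT4 stood at 11931 and 12778 normalized counts in siCt and at 9549 and 9653 in siAxl, or 77.7% of siCt (log2 fold change -0.36, SE 0.057, adjusted p = 0.00836). For TCP1, the siCt libraries gave 11082 and 11600.1 normalized counts and the siAxl libraries 8897 and 9014, a mean of 79.0% of siCt (log2 fold change -0.34, SE 0.054, adjusted p = 0.00840). CCT6A had 11887 and 12685 normalized counts in siAxl against 15229 and 15609 in siCt, which is 79.7% of siCt (log2 fold change -0.33, SE 0.058, adjusted p = 0.0116). For these 3 subunits the groups did not overlap, with siAxl means under 80.0% of siCt. Normalized counts of CCT5 were 20981 and 22657 in siCt and 17334 and 18486 in siAxl, so that the mean was 82.1% of siCt (log2 fold change -0.28, SE 0.065, adjusted p = 0.0261). CCT8 stood at 10918 and 10932 normalized counts in siCt and at 8989.7 and 9279.8 in siAxl, or 83.6% of siCt (log2 fold change -0.26, SE 0.052, adjusted p = 0.0181). For CCT2, the siCt libraries gave 10793 and 11619 normalized counts and the siAxl libraries 9350.0 and 9518, a mean of 84.2% of siCt (log2 fold change -0.25, SE 0.059, adjusted p = 0.0292). CCT5, CCT8 and CCT2, which sit in the same rings, had means of 82.1 to 84.2% of siCt, again without overlap between the groups. CCT3 had 14215 and 15055 normalized counts in siAxl against 16525 and 17437 in siCt, which is 86.2% of siCt (log2 fold change -0.21, SE 0.060, adjusted p = 0.0475). Normalized counts of CCT7 were 10988 and 11423 in siCt and 9788 and 10322 in siAxl, so that the mean was 89.7% of siCt (log2 fold change -0.16, SE 0.057, adjusted p = 0.0992). CCT7 was thus the subunit with the smallest difference. Its groups did not overlap, and it missed the threshold. The summed normalized counts of the 8 genes were 108447 and 114055 in siCt and 90010.4 and 94013 in siAxl, or 82.7% of siCt. Without siAxl 1 only CCT4 and TCP1 of this group were called, and without siAxl 2 or without siCt 2 the group had 4 calls. When every gene with at least 1 count was tested, 3 calls were left, those of CCT4, TCP1 and CCT6A.

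The 8 subunits enter the complex in equal numbers, so their balance within a library was compared as well. Relative to the mean log2 value of the 8, the shift from siCt to siAxl ranged from -0.089 for CCT4 to 0.12 for CCT7, beside a median log2 fold change of -0.27 over the 8 genes. CCT2, CCT5 and CCT8 overlapped between groups on this scale, and the other 5 did not. Such separation is common with 2 libraries per group. By level, 30.6% of all genes tested were separate with siAxl higher and 30.5% with siAxl lower. The exact two-sided permutation test over 2 against 2 libraries cannot give a p below 0.33, and that was the value for each of these 5. In all 15 ratios of members were tested, and the smallest p adjusted over them was 0.455. Per kilobase of exon, with the exons of all annotated transcripts merged, the siCt means of the subunits lay within a factor of 1.90. They ran from 2301 normalized counts for TCP1 to 4366 for CCT4. Before division by length these 2 stood at 11341 and 12355, with merged lengths of 4929 and 2830 bases, so the factor rests largely on length.

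**Figure D3:**
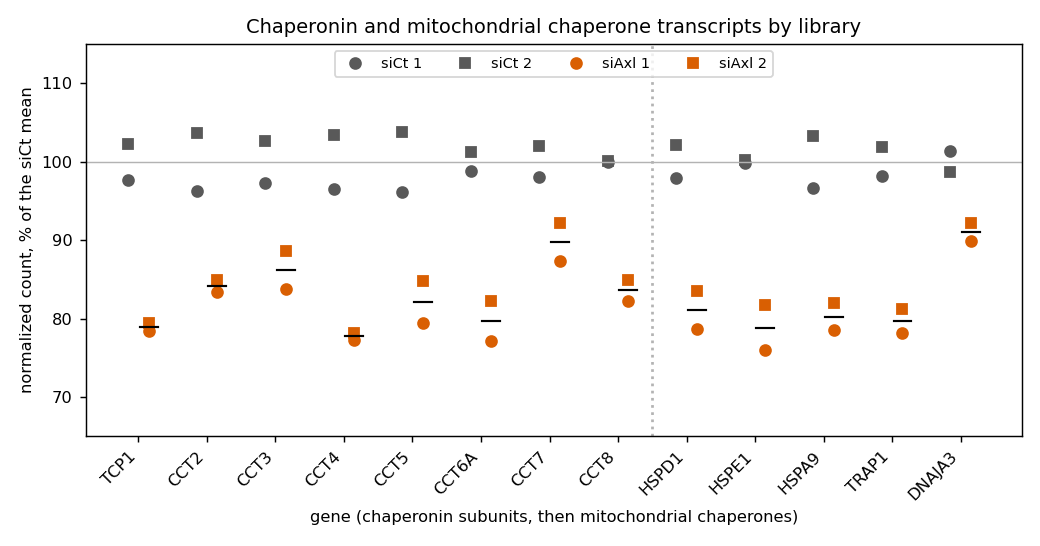
Normalized counts of the 8 chaperonin subunits and 5 mitochondrial chaperones in each library, as a percent of the siCt mean of the gene; the axis starts at 65%. Grey symbols are siCt and orange symbols siAxl, circles are replicate 1 and squares replicate 2, and black bars are siAxl means, which lie between 77.7% (CCT4) and 91.1% (DNAJA3).

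Prefoldin passes unfolded actin and tubulin to the chaperonin, and 2 of its subunits were members. PFDN4 stood at 1795 and 1994 normalized counts in siCt and at 1493 and 1587 in siAxl, or 81.3% of siCt (log2 fold change -0.30, SE 0.075, adjusted p = 0.0357). For PFDN2, the siCt libraries gave 2028 and 2052 normalized counts and the siAxl libraries 1789 and 1919, a mean of 90.9% of siCt (log2 fold change -0.14, SE 0.064, adjusted p = 0.177). Both genes had all siAxl values below all siCt values, and only PFDN4 was called. That call was lost without siCt 2, without siAxl 1 and without siAxl 2, and when every gene with at least 1 count was tested.

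The mitochondrial chaperones were lower as a group, with 4 of 5 called, a median log2 fold change of -0.32 and a summed level of 81.1% of siCt. HSPD1 (HSP60) and HSPE1 (HSP10) form the barrel and the lid of the mitochondrial chaperonin. HSPD1 had 13349.5 and 14157 normalized counts in siAxl against 16606 and 17319 in siCt, which is 81.1% of siCt (log2 fold change -0.30, SE 0.058, adjusted p = 0.0155). Normalized counts of HSPE1 were 2516 and 2524 in siCt and 1913 and 2061 in siAxl, so that the mean was 78.9% of siCt (log2 fold change -0.34, SE 0.063, adjusted p = 0.0134). The ratio of HSPD1 to HSPE1 on the log2 scale differed by 0.041 between the groups (exact two-sided permutation p = 0.33, the smallest possible), and both genes were lower without overlap between the groups. These neighbouring genes share 281 exonic bases on opposite strands, and whether counting used the strand is not given in the sources used here. HSPA9 stood at 17515 and 18717 normalized counts in siCt and at 14221 and 14858 in siAxl, or 80.3% of siCt (log2 fold change -0.32, SE 0.060, adjusted p = 0.0147). HSPA9, or mortalin, is the mitochondrial HSP70 that pulls imported proteins into the matrix. For TRAP1, the siCt libraries gave 2512 and 2606 normalized counts and the siAxl libraries 2000.7 and 2079, a mean of 79.7% of siCt (log2 fold change -0.33, SE 0.060, adjusted p = 0.0132). TRAP1 is the mitochondrial member of the HSP90 family, and 29.3% of its exonic length is shared with DNASE1 on the opposite strand. DNAJA3 had 2064 and 2117 normalized counts in siAxl against 2325 and 2265 in siCt, which is 91.1% of siCt (log2 fold change -0.13, SE 0.058, adjusted p = 0.154). DNAJA3, a mitochondrial J protein and partner of HSPA9, did not pass the test. Its 2 siAxl values were the lowest of the 4, which held for 30.5% of all genes tested. Without siAxl 1 none of the 5 was called, their adjusted p then being 0.0730 for TRAP1, 0.0768 for HSPE1, 0.0771 for HSPA9 and 0.0932 for HSPD1. When every gene with at least 1 count was tested, only TRAP1 of the 5 was called. Beside these values, transcripts of the mitochondrial genome made up 3.70 and 2.11% of the reads in siCt 1 and siCt 2 and 3.78 and 2.28% in siAxl 1 and siAxl 2.

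Neither cytosolic HSP90 gene was called, whereas 3 of 5 co-chaperones were. HSP90AB1, the constitutive cytosolic form, had the highest level of all members per kilobase, with a siCt mean of 32107 normalized counts per kilobase, and HSP90AA1 is the form that heat induces. Normalized counts of HSP90AB1 were 94983 and 96376 in siCt and 82821 and 85241 in siAxl, so that the mean was 87.8% of siCt (log2 fold change -0.19, SE 0.063, adjusted p = 0.0817). HSP90AA1 stood at 60324 and 61697 normalized counts in siCt and at 55252 and 58717 in siAxl, or 93.4% of siCt (log2 fold change -0.10, SE 0.063, adjusted p = 0.323). For both genes the siAxl values lay below the siCt values without passing the threshold. HSP90AB1 was called by edgeR (adjusted p = 0.0432) and by DESeq2 (adjusted p = 0.0351). The ratio of HSP90AA1 to HSP90AB1 was higher by 0.088 on the log2 scale in siAxl (exact two-sided permutation p = 0.33, the smallest possible).

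The co-chaperones called lower were STIP1, AHSA1 and FKBP5. For STIP1, the siCt libraries gave 13083 and 13968 normalized counts and the siAxl libraries 10569 and 11119, a mean of 80.2% of siCt (log2 fold change -0.32, SE 0.060, adjusted p = 0.0145). STIP1, or HOP, bridges HSP70 and HSP90 and passes clients between them. AHSA1 had 5266 and 5416 normalized counts in siAxl against 6340.2 and 6414 in siCt, which is 83.8% of siCt (log2 fold change -0.26, SE 0.053, adjusted p = 0.0191). AHSA1 stimulates the ATPase of HSP90. Normalized counts of FKBP5 were 2228 and 2335 in siCt and 1529 and 1759 in siAxl, so that the mean was 72.0% of siCt (log2 fold change -0.48, SE 0.081, adjusted p = 0.0105). FKBP5 (FKBP51) is a prolyl isomerase that holds steroid receptors in a state of low hormone affinity, and its transcript is a well-known target of glucocorticoid and other steroid receptors. FKBP4 stood at 4909.5 and 5021 normalized counts in siCt and at 4691 and 4740.1 in siAxl, or 94.97% of siCt (log2 fold change -0.074, SE 0.053, adjusted p = 0.371). FKBP4 (FKBP52) is the paralogue that favours the active receptor. Its groups were separate, but it was not called, and its 95% interval ran from -0.20 to 0.050. The log2 ratio of FKBP5 to FKBP4 stood at -1.14 and -1.10 in siCt and at -1.62 and -1.43 in siAxl, a difference of -0.40 (exact two-sided permutation p = 0.33, the smallest possible). For CDC37, the siCt libraries gave 10265 and 9940.1 normalized counts and the siAxl libraries 9908 and 9897, a mean of 98.0% of siCt (log2 fold change -0.029, SE 0.052, adjusted p = 0.749). CDC37, which brings kinases to HSP90, thus had nearly equal values in all libraries. Of the 3 calls, FKBP5 was the only one left without siAxl 1, and AHSA1 was also lost without siAxl 2. When every gene with at least 1 count was tested, all 3 calls were lost, with adjusted p of 0.0524 for FKBP5, 0.0551 for STIP1 and 0.0546 for AHSA1.

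Of the 9 HSP70 and HSP110 genes, 2 were called lower (22.2%, against 7.91% of all genes tested) and 6 were not called. The 1 called higher makes up 11.1%, near the 10.8% of all genes tested. The log2 fold change was below 0 for 7 of these genes, with a median of -0.20. HSPA8 (HSC70) is the constitutive cytosolic HSP70 and had the highest level of them per kilobase. HSPA8 had 70822 and 74594 normalized counts in siAxl against 79600.2 and 82157 in siCt, which is 89.9% of siCt (log2 fold change -0.15, SE 0.065, adjusted p = 0.145). Its siAxl values lay below its siCt values, but the difference did not pass the test. HSPA1A and HSPA1B encode the heat-inducible HSP70 and are nearly identical in sequence, so the split of reads between them is uncertain. Reads that fit both genes may also be missing from their counts, and so from the sum of the 2. Normalized counts of HSPA1A were 1086 and 1049 in siCt and 1184 and 1158 in siAxl, so that the mean was 109.7% of siCt (log2 fold change 0.13, SE 0.067, adjusted p = 0.212). HSPA1B stood at 3546 and 4043 normalized counts in siCt and at 3474 and 3621 in siAxl, or 93.5% of siCt (log2 fold change -0.094, SE 0.075, adjusted p = 0.426). The 2 genes had opposite signs and neither was called. Their sum was 4632 and 5091 in siCt and 4658 and 4779 in siAxl, which is 97.1% of siCt with overlapping groups. Relative to HSPA8, the sum was higher by 0.11 on the log2 scale in siAxl (exact two-sided permutation p = 0.33, the smallest possible).

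HSP110 proteins exchange the nucleotide of HSP70 and hold unfolded clients. For HSPH1, the siCt libraries gave 8813 and 9497 normalized counts and the siAxl libraries 7681 and 8028, a mean of 85.8% of siCt (log2 fold change -0.22, SE 0.061, adjusted p = 0.0460). HSPH1 is the heat-inducible member of that family. HSPA14 had 2203 and 2282 normalized counts in siAxl against 2612 and 2806 in siCt, which is 82.8% of siCt (log2 fold change -0.27, SE 0.064, adjusted p = 0.0280). HSPA14 is a divergent HSP70 that associates with the ribosome. HSPA4 and HSPA4L, the other HSP110 genes, were at 87.2 and 83.8% of siCt with adjusted p of 0.0877 and 0.107, and neither was called. The log2 ratio of HSPH1 to HSPA4 differed by -0.024 between the groups, which overlapped (exact two-sided permutation p = 0.667). Normalized counts of HSPA13 were 3648 and 3562 in siCt and 4362 and 4333 in siAxl, so that the mean was 121% of siCt (log2 fold change 0.27, SE 0.053, adjusted p = 0.0169). HSPA13 was the member of this family called higher. HSPA1A also had both siAxl values above both siCt values, but it was not called. HSPA2 stood at 45.1 and 50.9 normalized counts in siCt and at 33.0 and 33.4 in siAxl, or 69.2% of siCt (log2 fold change -0.52, SE 0.21, adjusted p = 0.136). HSPA2, known for its role in the testis, had the lowest level of all members, and its 95% interval ran from -1.01 to -0.017. The calls of HSPH1 and HSPA14 were lost without siCt 2 and without either siAxl library, and that of HSPA13 without either siAxl library, while without siCt 1 HSPA4 and HSPA4L were called lower as well. The calls of HSPH1, HSPA14 and HSPA13 were also lost when every gene with at least 1 count was tested.

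J proteins were called in both directions, with 2 called higher and 2 called lower of 6, and 2 of the 3 members called higher belong to them. For DNAJB6, the siCt libraries gave 11137 and 10515 normalized counts and the siAxl libraries 15093 and 15411, a mean of 141% of siCt (log2 fold change 0.49, SE 0.056, adjusted p = 0.00327). DNAJB2 had 2062 and 1981 normalized counts in siAxl against 1517 and 1301 in siCt, which is 143% of siCt (log2 fold change 0.52, SE 0.085, adjusted p = 0.00897). Both rose, and every siAxl value lay above every siCt value. DNAJB6 and DNAJB2 belong to the J proteins that keep aggregation-prone proteins, polyglutamine proteins among them, soluble, and DNAJB2 also carries ubiquitin-interacting motifs. The promoter of DNAJB6 holds one of the elements printed above, while the promoter window of DNAJB2 held none. Normalized counts of DNAJA1 were 15276 and 16525 in siCt and 12909.6 and 13856 in siAxl, so that the mean was 84.2% of siCt (log2 fold change -0.25, SE 0.065, adjusted p = 0.0402). DNAJA2 stood at 4552 and 4930.0 normalized counts in siCt and at 3821 and 3951 in siAxl, or 82.0% of siCt (log2 fold change -0.29, SE 0.062, adjusted p = 0.0226). DNAJA1 and DNAJA2 are the main cytosolic J proteins that deliver clients to HSC70, and both fell without overlap between the groups. For DNAJB1, the siCt libraries gave 6957 and 7971 normalized counts and the siAxl libraries 6922 and 7709.6, a mean of 98.0% of siCt (log2 fold change -0.028, SE 0.084, adjusted p = 0.851). DNAJB1 (HSP40), a heat-inducible J protein as is DNAJA1, overlapped between the groups. DNAJB4 had 797 and 914 normalized counts in siAxl against 1012 and 1196 in siCt, which is 77.5% of siCt (log2 fold change -0.37, SE 0.11, adjusted p = 0.0550). DNAJB4, a relative of DNAJB1, had the lowest mean of the 6 relative to siCt, at an adjusted p just above the threshold, and DESeq2 called it (adjusted p = 0.0337). The log2 ratio of DNAJB1 to DNAJA1 was -1.13 and -1.05 in siCt and -0.90 and -0.85 in siAxl, a difference of 0.22 (exact two-sided permutation p = 0.33, the smallest possible). The calls of DNAJA1 and DNAJA2 were lost without siCt 2 and without either siAxl library, whereas without siCt 1 or without siAxl 2 DNAJB4 was called lower. Testing every gene with at least 1 count also ended the calls of DNAJA1 and DNAJA2, but not those of DNAJB6 and DNAJB2.

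BAG proteins release the nucleotide from HSP70, and STUB1 (CHIP) is the ubiquitin ligase that marks HSP70 and HSP90 clients for degradation. None of the 4 genes was called. Normalized counts of BAG3 were 5684 and 5895 in siCt and 5008 and 5209 in siAxl, so that the mean was 88.2% of siCt (log2 fold change -0.18, SE 0.055, adjusted p = 0.0631). BAG3, which is induced by stress and directs clients to autophagy, had both siAxl values below both siCt values. BAG1 stood at 2465 and 2509 normalized counts in siCt and at 2550.4 and 2517 in siAxl, or 102% of siCt (log2 fold change 0.027, SE 0.056, adjusted p = 0.784). BAG1, which directs clients to the proteasome, stood within its error of no difference. The log2 ratio of BAG3 to BAG1 was lower by 0.21 in siAxl, from 1.21 and 1.23 in siCt to 0.97 and 1.05 (exact two-sided permutation p = 0.33, the smallest possible). BAG2 and STUB1 were at 98.4 and 92.7% of siCt, with 95% intervals of the log2 fold change from -0.17 to 0.12 and from -0.25 to 0.028. On the opposite strand, BAG2 shares 42.7% of its exonic length with RAB23 and STUB1 shares 42.4% with JMJD8.

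Small heat shock proteins hold unfolded proteins without ATP. For HSPB1, the siCt libraries gave 3931 and 3562 normalized counts and the siAxl libraries 4701 and 4275, a mean of 119.8% of siCt (log2 fold change 0.26, SE 0.074, adjusted p = 0.0508). HSPB1 (HSP27), the abundant and stress-inducible one, had both siAxl values above both siCt values and missed the threshold narrowly, while DESeq2 called it (adjusted p = 0.0317). HSPB8 had 312 and 315 normalized counts in siAxl against 297 and 296 in siCt, which is 106% of siCt (log2 fold change 0.080, SE 0.10, adjusted p = 0.614). HSPB8, which works with BAG3, had siAxl values slightly above its siCt values, and its 95% interval ran from -0.15 to 0.31. Normalized counts of HSPB11 were 2012 and 1872 in siCt and 1504 and 1618 in siAxl, so that the mean was 80.4% of siCt (log2 fold change -0.31, SE 0.071, adjusted p = 0.0252). HSPB11 fell, but it is grouped here by its symbol and its known role is in intraflagellar transport. The call of HSPB11 was lost without siAxl 1, and when every gene with at least 1 count was tested (adjusted p = 0.0780), and without siCt 1 HSPB1 was called higher (adjusted p = 0.00287).

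Of the 2 heat shock factors, HSF2 was called lower and HSF1 was not called. HSF2 stood at 1320.4 and 1324 normalized counts in siCt and at 980.0 and 851 in siAxl, or 69.2% of siCt (log2 fold change -0.53, SE 0.085, adjusted p = 0.00849). HSF2, a factor linked to development and to the protein load of proteasome inhibition, fell in every setting tried, with both siAxl values far below the siCt values. For HSF1, the siCt libraries gave 4306 and 4061 normalized counts and the siAxl libraries 4272 and 4183, a mean of 101% of siCt (log2 fold change 0.016, SE 0.058, adjusted p = 0.879). HSF1, the main activator of the heat shock response, overlapped between the groups, and its interval of -0.12 to 0.15 bounds the difference. The difference between the changes of the 2 factors was not tested. HSF1 is known to be activated at the protein level, which RNA levels do not show.

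The plot of the heat shock factors also shows HSPA1A, HSPA1B, HSP90AA1, HSPH1, DNAJB1, BAG3, HSPB1 and HSPB8, members known to be induced by heat. They were picked from general knowledge after their values were seen, and only HSPH1 of them was called. Heat also induces DNAJA1, HSPD1, HSPE1, STIP1 and AHSA1, which are not in that plot and were all called lower, so the 8 genes do not stand for the heat-inducible members as a whole.

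**Figure D4:**
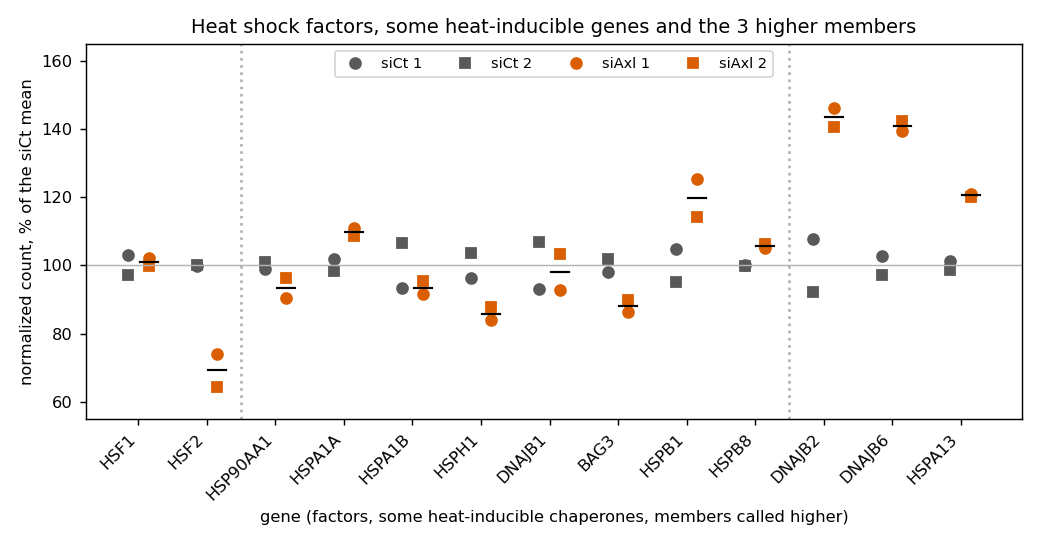
Normalized counts of the 2 heat shock factors, 8 of the heat-inducible genes and the 3 members called higher in each library, as a percent of the siCt mean of the gene; the axis starts at 55%. Grey symbols are siCt and orange symbols siAxl, circles are replicate 1 and squares replicate 2, and black bars are siAxl means, from 69.2% (HSF2) to 143% (DNAJB2).

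**Figure D5:**
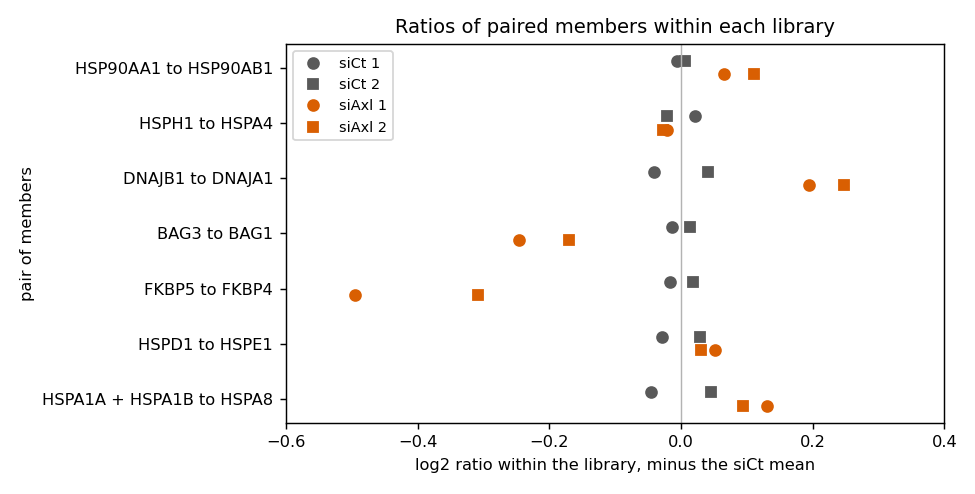
Log2 ratio of paired members within each library, with the siCt mean of the pair set to 0. Grey symbols are siCt and orange symbols siAxl, circles are replicate 1 and squares replicate 2; HSPH1 to HSPA4 is the only pair whose groups overlap.

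Of 75 other chaperone genes, which were listed from general knowledge by family, all were found and 64 were tested, with 8 called lower (12.5%) and 3 called higher (4.69%) and a median log2 fold change of -0.061. The difference between this list and the members was not tested. CHORDC1 had 1576 and 1494 normalized counts in siAxl against 2147 and 2131 in siCt, which is 71.8% of siCt (log2 fold change -0.48, SE 0.062, adjusted p = 0.00442). Normalized counts of NUDC were 7239 and 7243 in siCt and 5683 and 5747 in siAxl, so that the mean was 78.9% of siCt (log2 fold change -0.34, SE 0.051, adjusted p = 0.00696). GRPEL2 stood at 1318 and 1369.6 normalized counts in siCt and at 1035 and 1035 in siAxl, or 77.0% of siCt (log2 fold change -0.38, SE 0.066, adjusted p = 0.0115). CHORDC1 and NUDC are HSP90 co-chaperones and GRPEL2 is a nucleotide exchange factor of HSPA9, and all 3 had siAxl values below their siCt values. For DNAJC18, the siCt libraries gave 562 and 499 normalized counts and the siAxl libraries 778 and 695, a mean of 139% of siCt (log2 fold change 0.47, SE 0.10, adjusted p = 0.0205). FKBP8 had 11257 and 11415 normalized counts in siAxl against 9589.8 and 9783 in siCt, which is 117% of siCt (log2 fold change 0.23, SE 0.052, adjusted p = 0.0262). Normalized counts of UNC45A were 2800.0 and 2701 in siCt and 3176 and 3302 in siAxl, so that the mean was 118% of siCt (log2 fold change 0.24, SE 0.058, adjusted p = 0.0325). FKBP8 is a prolyl isomerase of the outer mitochondrial membrane that binds HSP90, UNC45A is a co-chaperone of HSP90 for myosin, and these 3 genes had siAxl values above their siCt values. The remaining genes called lower were VBP1 and PFDN6, which are prefoldin subunits, CACYBP, DNAJB14 and GRPEL1. The prefoldin subunits PFDN1 and PFDN5, also on this list, stood at 104% and 101% of siCt. Neither was called (adjusted p = 0.539 and 0.875 in limma), so prefoldin was not lower in all its subunits. Without siAxl 1 the list had 3 genes called lower and 0 called higher.

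Levels of different members were compared per kilobase of exon, with the exons of all annotated transcripts of a gene merged. Where the expressed transcript is shorter than the merged length, the value is too low, so the order of genes is approximate. The merged length was 14981 bases for DNAJB6 and 4245 for HSPD1, against 2830 for CCT4 and 4018 for CCT3. On that scale the siCt means were highest for HSP90AB1 (32107 normalized counts per kilobase), HSPA8 (16679), HSP90AA1 (11625) and DNAJA1 (5824), and lowest for HSPA2 (8.31). The first 4 hold the promoter element. Of its other holders HSPD1 was at 3996 and DNAJB6 at 723, both below CCT4 (4366) and CCT3 (4226), whose windows held none. Whether the element goes with the level was not tested. The members' 3′ UTRs were also searched for CACATCA, a 7-base word picked in an earlier analysis of these data. It was present in 11 of the 46 members (23.9%), beside 16.2% of the 13025 genes tested that have a 3′ UTR. Of these 11 members 6 were called lower and 1 higher, and of the 35 members without it 15 were called lower and 2 higher. Over all genes tested with a 3′ UTR, by contrast, the median log2 fold change was 0.077 with the word and -0.011 without it. Because the word was picked from these data, its counts support nothing about the members. Reads on pseudogenes named after a member amounted to at most 1.84% of the reads of the member, the highest share being that of HSPE1.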

How the data were processed

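RNA from 4 libraries of MDA-MB-231 cells, 2 with siCt and 2 with siAxl, was extracted with RNeasy columns and sequenced on an Illumina HiSeq. The submitters' processing notes name CASAVA 1.8, TopHat2 2.0.10, HTSeq 0.5.3, DESeq2 1.4.5 and the build GRCh37. The annotation release and the strand setting of the counting are not given in the sources used here. The authors deposited a table of 63677 genes with 1 signal column per library, namely reads counted per gene and divided by the size factor of the library. Its columns of the authors' own comparison (fold changes, standard errors, p-values) were not used. In each library 100% of the values were whole multiples of 1 read (tolerance 0.1), so reads were recovered by division. Per-sample columns not used numbered 0.

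Samples were grouped by their labels. Since the values were normalized counts, limma 3.58.1 (lmFit, eBayes with trend, in R 4.3.3) was run on log2(normalized count + 1) for the 16064 genes that passed edgeR's filterByExpr, without covariates. A call needed an adjusted p under 0.05, with the Benjamini-Hochberg adjustment made across every gene in the test. Fold changes are on that log2 scale. The alternatives were edgeR 4.0.16 (quasi-likelihood) and DESeq2 1.42.0 on the recovered reads, other scalings, pseudocounts and filters, a replicate block and leaving out each library. The code was tested on simulated data. Exon lengths, 3′ UTRs and overlaps came from GENCODE 29 (GRCh38) and promoter windows from RefSeq (GRCh38.p14), and no coordinates of the deposited build are given. STUB1, CCT6A, HSPA14, HSF1, FKBP4, HSPB11 and PFDN2 had no promoter window.

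The members and lists were chosen with earlier results of these data known. Library values are given for the heat shock factors, HSP90AA1, HSP90AB1, HSPA1A, HSPA1B, HSPA8, HSPH1, DNAJB1, HSPB1, BAG3, HSPD1, HSPE1, FKBP4, FKBP5, every member called, the members with the extreme fold changes of each role group, and HSPB8. Of the other chaperone genes, the 3 with the smallest adjusted p in each direction are named with values. The libraries held 39574387 to 44585773 reads. The 2 libraries per group limit the precision, and for HSPA2, the member with the fewest reads, so does depth: its SE was the largest of the members (0.21) and DESeq2 gave it no adjusted p.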

Additional observations from a re-analysis of the deposited data

How the results depend on the processing

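The median log2 fold change of the members stayed below 0 in all 12 alternatives, between -0.26 and -0.17, and AXL stayed called lower in each. With every gene of at least 1 count tested (27108 genes, 340 called lower and 757 higher), 5 members were called lower. Of the other chaperone genes 4 were then called lower and 0 higher, and the cause was not tested. Leaving out 1 library at a time gave 4 to 24 members called lower and 2 to 4 higher, and 3 to 12 other chaperone genes called lower and 0 to 5 higher. With library size alone the log2 fold change was -0.014 for HSF1 and -0.0024 for BAG1. Over the fits without 1 library it ranged from -0.027 to 0.058 for HSF1, from -0.068 to 0.021 for BAG2, from -0.19 to 0.00031 for HSPA1B and from -0.13 to 0.070 for DNAJB1, so the sign of these 5 uncalled genes was not fixed. BAG2 was above 0 without siCt 1 (0.0060) or siAxl 1, DNAJB1 without siCt 2 or siAxl 1 (0.050), and HSF1 was below 0 and HSPA1B above 0 without siCt 2. Lower members numbered 22 with edgeR, 23 with DESeq2 and 26 with library size alone, all within 1.5 times the 21 reported. Where a group was left with 1 library, limma took its spread from the other group.

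Libraries with the same replicate number share only that number in the labels, and their deviations from the group means correlated at 0.27 across genes. The share of reads from the mitochondrial genome also split by this number. It was 3.70 and 3.78% in siCt 1 and siAxl 1, against 2.11 and 2.28% in siCt 2 and siAxl 2. The main test did not use such a pairing. With the replicate number as a block, 32 members were called lower and 5 higher, and of the other chaperone genes 26 were called lower and 8 higher. Calls over all 16064 genes tested rose as well, to 3573 lower and 3737 higher, from 1271 and 1735 without the block. The fold changes under the block equal those reported. HSP90AA1 and HSPA8, which were not called without the block, were called lower with it. With 2 libraries per group the spread of any single gene is poorly known.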
